A study of Mus musculus with 6 samples.

Results

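Members of the mouse apolipoprotein L family were measured in 4T1 cells, which derive from a mammary tumour of the Balb/c mouse strain, with and without knockout of Atm. Atm encodes a kinase activated by broken DNA. The members are the listed genes whose symbol is Apol followed by a digit: 6 of the 13405 genes in the tables, namely Apol9a, Apol9b, Apol7a, Apol10b, Apol8 and Apol7d. The family was chosen by the measured values of Apol9a and Apol9b in this same contrast, in which all ATM KO libraries exceeded all vector control libraries. The difference between the groups in these genes is therefore given as a description, with no test. RNA came from 2 groups of 3 libraries of cultured cells, ATM KO 4T1 cells and vector control 4T1 cells. Both carry the Balb/c background of the line, and the labels name no treatment, clone number or culture day, nor how the knockout was made.

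Apolipoprotein L proteins are membrane-active proteins with a channel-like region. Human APOL1 lyses trypanosomes in the blood, and human APOL3 is induced by interferon. The mouse proteins Apol9a and Apol9b bind phosphatidylethanolamine, restrict replication of Theiler's virus when overexpressed, and are made from interferon-stimulated genes. Interferon reaches such genes through ISGF3, a transcription factor complex that includes STAT2 and IRF9 and binds the interferon-stimulated response element (ISRE). A further DNA element of interferon-gamma targets is the gamma-activated site (GAS). The title of the series concerns ATM inhibition, leaked mitochondrial DNA and cGAS-STING, by which DNA in the cytosol switches on interferon genes, so an interferon-stimulated family bears on its question.

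The annotation (GENCODE M21, GRCm38) holds 14 genes of the family, 13 of them in 1 cluster on chromosome 15 and 1, Apol7d, on chromosome 1. Apol7a (ENSMUSG00000010601) lies at chr15:77388219-77399110 on the minus strand, followed by Apol9a (ENSMUSG00000057346) at chr15:77403789-77411135, also on the minus strand. Apol10b (ENSMUSG00000050014) lies at chr15:77583819-77596125 on the minus strand, Apol9b (ENSMUSG00000068246) at chr15:77729039-77736382 on the plus strand and Apol8 (ENSMUSG00000056656) at chr15:77747798-77757003 on the minus strand. Between Apol9a and Apol9b lie 318 kb and 8 other genes of the family. Apol7d (ENSMUSG00000073652) lies at chr1:71652837-71662843 on the plus strand. It is flagged as coding in the tables but annotated as antisense, and 292 of its exon bases overlap Fn1, the fibronectin gene on the opposite strand. The other 8 annotated genes (Apol6, Apol7b, Apol7c, Apol7e, Apol10a, Apol11a, Apol11b and the pseudogene Apol10c-ps) enter below only through their promoters, where RefSeq has an entry, and their expression was not analysed here.

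Apol9a and Apol9b are near-copies of each other. Their coding sequences are 930 bases each and differ at 14 of them, an identity of 98.5%, whereas the other pairs of the 5 coding genes on chromosome 15 have 61.4% to 70.8% identity over the aligned bases. Of all 50-base stretches in annotated transcripts, 16.5% of those of Apol9a and 52.3% of those of Apol9b occur in the other copy. The promoters of the copies, taken from RefSeq (GRCm38.p6), were identical over all 278 aligned bases. The stretches below show what sets these promoters apart from those of Apol7a and Apol8. Each is written 5′ to 3′ on the gene's strand, and capitals mark matches to the ISRE core (GAAA, any 2 bases, GAAA), searched on both strands, which here all lie on the opposite strand and so read TTTC, any 2 bases, TTTC.
Apol9a, chr15:77411124-77411199, minus strand: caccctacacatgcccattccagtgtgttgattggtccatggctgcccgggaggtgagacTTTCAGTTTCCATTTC
Apol9b, chr15:77728975-77729050, plus strand: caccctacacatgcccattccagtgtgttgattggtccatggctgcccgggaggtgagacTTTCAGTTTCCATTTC
Apol10b, chr15:77596120-77596189, minus strand: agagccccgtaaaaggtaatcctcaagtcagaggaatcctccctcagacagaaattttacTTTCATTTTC
Apol7a, chr15:77399111-77399186, minus strand: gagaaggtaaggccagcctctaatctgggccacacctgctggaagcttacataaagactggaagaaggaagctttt
Apol8, chr15:77757011-77757086, minus strand: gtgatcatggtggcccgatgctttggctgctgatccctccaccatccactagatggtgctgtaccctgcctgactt

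The promoter windows run from 250 bases before to 50 bases after a RefSeq start. In Apol9a and in Apol9b 2 overlapping ISRE cores share 4 bases. They begin at positions -59 and -53 from the first RefSeq start of Apol9a and at -37 and -31 from that of Apol9b. From the second RefSeq starts they begin at -105 and -99 in Apol9a and at -86 and -80 in Apol9b. The earliest GENCODE starts lie at -55 and -33 from the first RefSeq starts of Apol9a and Apol9b. By that annotation the first core spans the start and the second begins after it. Apol10b had 1 core, beginning at -4, and Apol7a and Apol8 had no match in their windows. Across the family, 8 of the 11 genes with a promoter entry (72.7%) held an ISRE core, against 3.99% of 27025 genes with an entry and 3.64% of those listed in the tables. Apol7c and Apol7e, like the Apol9 genes, had 2 overlapping cores. The GAS core (TTC, any 3 bases, GAA) occurred in 3 of the 11 genes (Apol10a, Apol11a and Apol11b), none of them measured here, and in 9.55% of all genes with an entry. A match is a run of letters and was not tested as a binding site.

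The listed genes took 22494919 to 32341508 reads in a library, and the values below are normalized read counts, that is, reads over a scaling factor set by the authors for that library. Atm itself was at 1959, 2220 and 1591 in ATM KO cells, against 1978, 1613 and 1519 in vector control cells, a log2 difference of 0.17 (SE 0.19), so its mRNA does not check the labels, on which the direction of every comparison rests. Vector control 1 was unlike controls 2 and 3: on the first principal component, which held 59.4% of the variance, it was at 86.2, while these were at -36.9 and -37.0. The ATM KO libraries were at -3.19, 41.5 and -50.7. Controls 2 and 3 correlated at 0.997 over genes, higher than any other pair, although they differed by more than sampling noise and were counted as 2 samples. Results are therefore also given without control 1. The control group then holds only these nearly alike libraries, which may stand for little more than 1 sample. In that setting 19.6% of all tested genes had every ATM KO library above every control left, against 5.70% with all controls. The epithelial markers of the line were present: 10 of 11 were listed, with summed values of 164892, 121043 and 171111 in ATM KO and 96732, 135753 and 134865 in vector control libraries, and Krt5 at 0 in each. Of the 9 tested, Krt14 (2223, 1370 and 2311 in ATM KO, against 150, 684 and 654 in vector control libraries, a log2 difference of 2.23) and Cldn4 (0.81) did not overlap and were higher in ATM KO. They make up 22.2% of the 9, against 5.70% of all tested genes. Of the immune markers 3 of 17 were listed (Csf1r, Cd74 and Cd68), with summed values of 1804, 718 and 1348 in ATM KO and 554, 1390 and 1476 in vector control libraries. Ptprc, the pan-leukocyte marker, was not among the listed genes. Of the fibroblast markers 3 of 9 were listed, with summed values of 536, 344 and 754 in ATM KO and 146, 509 and 547 in vector control libraries. Of the endothelial markers 1 of 7 was listed, at 6.84, 3.18 and 0 in ATM KO and 11.7, 3.87 and 2.10 in vector control libraries. Of the 3 immune markers Csf1r alone (33.3%, against 5.70% of all tested genes) parted the groups. It had 968, 438 and 1119 in ATM KO, against 229, 378 and 387 in vector control libraries. The part of these markers in the apolipoprotein L results was not tested.

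Apol9a and Apol9b were the members with the largest difference. Apol9a had normalized read counts of 144, 112 and 79.3 in ATM KO cells, against 11.7, 26.1 and 14.7 in vector control cells. These rest on 168, 106 and 62 reads in ATM KO, against 12, 27 and 14 reads in vector control libraries. The lowest ATM KO library was about 3 times the highest control. The means were 112 ± 32.2 in ATM KO and 17.5 ± 7.62 in vector control cells (SD, n = 3 each), a ratio of 6.39 and a log2(value + 1) difference of 2.64 (SE 0.43). In such bulk samples more cells with the RNA and more RNA per cell cannot be told apart.

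Apol9b had 96.7, 190 and 118 in ATM KO cells, against 14.6, 28.1 and 32.6 in vector control cells. Its reads numbered 113, 179 and 92 in ATM KO, against 15, 29 and 31 in vector control libraries. Here too every ATM KO library was above every control, with the highest value in ATM KO 2 where Apol9a was highest in ATM KO 1. The means were 135 ± 48.9 in ATM KO and 25.1 ± 9.35 in vector control cells (SD, n = 3 each), a ratio of 5.38 and a log2 difference of 2.40 (SE 0.44). Apol9a ranked 28 and Apol9b ranked 44 from the highest log2 difference among the 12149 genes with a mean value of at least 10. Without vector control 1 the differences were 2.41 for Apol9a and 2.06 for Apol9b, and over all libraries left out in turn they stayed between 2.41 and 2.96 and between 2.06 and 2.61. Separate cultures are not stated in the labels, so the spread between libraries may be technical.

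**Figure D1:**
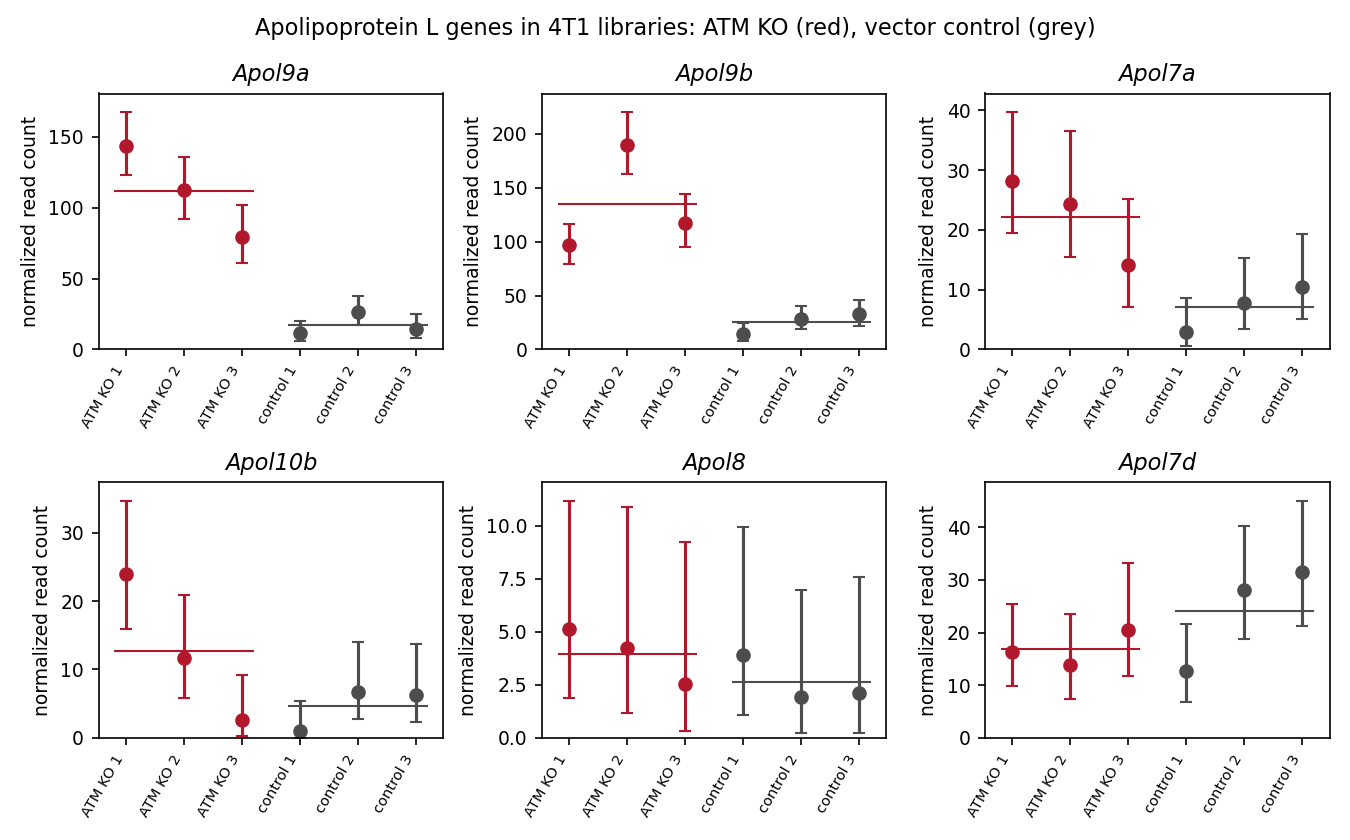
Normalized read counts of the 6 apolipoprotein L genes (vertical axes from 0, a scale per gene) in the 3 ATM KO libraries (red) and the 3 vector control libraries (grey). Points are libraries, bars are 95% exact Poisson intervals of the reads, which cover counting error only, and horizontal lines are group means. In Apol9a, Apol9b and Apol7a the groups do not overlap, while in Apol10b, Apol8 and Apol7d they do.

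Because reads can be shared or lost between the copies, their sum was also taken. Apol9a and Apol9b together had 240, 302 and 197 in ATM KO cells, against 26.3, 54.2 and 47.3 in vector control cells. The lowest ATM KO library was 3.64 times the highest control. The means were 247 ± 52.9 in ATM KO and 42.6 ± 14.5 in vector control cells (SD, n = 3 each), a ratio of 5.79. Leaving out each library in turn gave log2 differences of the sum from 2.24 to 2.75, around 2.55 with all libraries.

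The split of these reads between the copies varied among libraries of the same group. Apol9a held 59.8% of the reads of both genes in ATM KO 1 (95% Clopper-Pearson interval 53.8% to 65.6%), 37.2% in ATM KO 2 (31.6% to 43.1%) and 40.3% in ATM KO 3 (32.4% to 48.5%). In the vector control libraries it held 44.4% (25.5% to 64.7%), 48.2% (34.7% to 62.0%) and 31.1% (18.2% to 46.6%). The shares were unequal within the knockout group, where the interval of ATM KO 1 lay above those of ATM KO 2 and 3, while all 3 controls overlapped each other. The log2 ratio of Apol9a to Apol9b averaged -0.25 ± 0.71 in ATM KO and -0.50 ± 0.53 in vector control libraries (SD, n = 3 each), a gap smaller than the spread within either group.

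**Figure D2:**
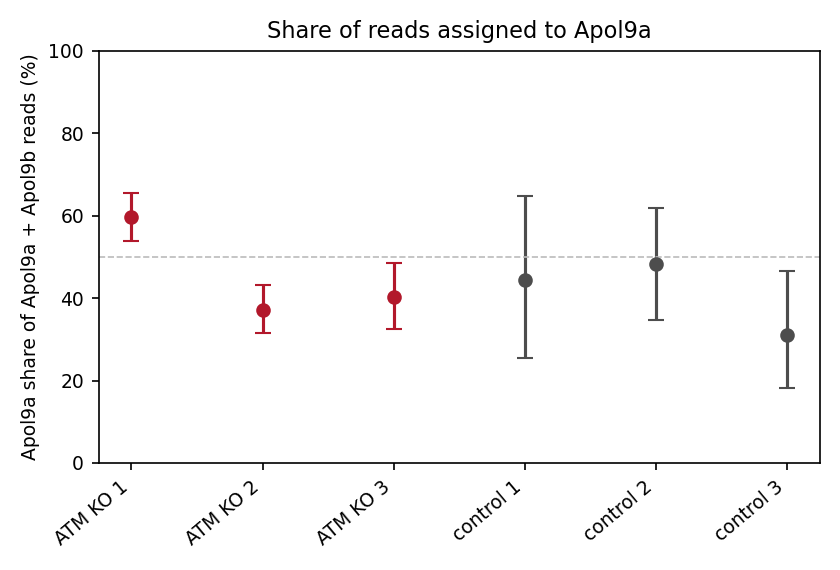
Share of the reads of Apol9a and Apol9b that were assigned to Apol9a (vertical axis, percent) in each library, ATM KO in red and vector control in grey. Points are shares, bars are 95% Clopper-Pearson intervals and the dashed line is an even split; ATM KO 1 at 59.8% lies above the intervals of ATM KO 2 and 3, and the controls lie between 31.1% and 48.2%.

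Apol7a, whose gene neighbours Apol9a, had 28.2, 24.4 and 14.1 in ATM KO cells, against 2.92, 7.74 and 10.5 in vector control cells. The groups did not overlap, but the gap was narrow, with 11 reads in the lowest ATM KO library and 10 in the highest control. The log2 difference was 1.61 (SE 0.58), and 1.16 without vector control 1. Apol7a passed the filter on low values through its ATM KO libraries alone: its vector control mean was 7.05 ± 3.84, against 22.2 ± 7.32 in ATM KO (SD, n = 3 each). Part of its transcript sequence is also found in its paralogs, and 84.5% of its 50-base stretches were found in no other gene.

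Apol10b and Apol8, from the middle and the far end of the cluster, were below that filter. Apol10b had 24.0, 11.7 and 2.56 in ATM KO cells, against 0.973, 6.77 and 6.30 in vector control cells. ATM KO 3, with 2 reads, lay below 2 of the 3 controls, so the groups overlapped, and the log2 difference of 1.11 (SE 0.90) fell to 0.47 without vector control 1. Apol8 had 5.13, 4.24 and 2.56 in ATM KO cells, against 3.89, 1.93 and 2.10 in vector control cells, from 2 to 6 reads a library. Its log2 difference was 0.45 (SE 0.45), and a difference between the groups was not detectable at this depth.

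Apol7d, the member on chromosome 1, went the other way in its means, with overlap. It had 16.3, 13.8 and 20.5 in ATM KO cells, against 12.6, 28.1 and 31.5 in vector control cells, a log2 difference of -0.41 (SE 0.48). The sources do not state if reads were counted by strand, so its reads and those of Fn1, at 75907, 43027 and 111429 in ATM KO, against 26326, 87794 and 87802 in vector control cells, cannot be told apart where the exons overlap. Over the 6 libraries Apol7d correlated at 0.77 with Fn1 and at -0.29 with the mean log2 profile of Apol9a and Apol9b.

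Among all genes with a mean of at least 10, 5.70% had every ATM KO library above every vector control library, and 5.48% the reverse. Of the 4 members with such a mean, Apol9a, Apol9b and Apol7a did so, a count from the contrast on which the family was chosen, from which nothing is read. By limma with Benjamini-Hochberg adjustment 0 genes were called in the whole table at an adjusted p of 0.05, with 505 at an unadjusted p under 0.05. edgeR's quasi-likelihood test called 0 as well (522 unadjusted), and DESeq2 called 84 (0.692%), of which 68 (0.561%) were higher in ATM KO.

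The make-up of the family's reads is given as a description only. Apol9a and Apol9b were chosen for their higher values in ATM KO, so nothing is read from their larger share there. Apol9a and Apol9b gave 76.6%, 84.8% and 83.2% of all apolipoprotein L values in the ATM KO libraries, against 56.3%, 54.9% and 48.4% in the vector control libraries. The summed value of the 6 genes was 314, 357 and 237 in ATM KO, against 46.7, 98.7 and 97.7 in vector control libraries. Divided by the bases of all annotated exons, Apol9b was the highest member, with 74.0 normalized reads per kb in ATM KO and 13.8 in vector control cells, and Apol9a came next in ATM KO with 18.8, against 2.94 in vector control cells. Most of the gap between the copies on this scale lies in the annotated exon length, 5953 bases in Apol9a and 1821 in Apol9b, although their coding parts are equally long. On that scale Apol9b stood at percentile 26.4 of 12030 genes in ATM KO cells and 9.58 in vector control cells, so that even in the knockout its counted reads were below those of most measured genes. Reads lost between the copies would lower these levels and were not corrected for. Of the 50-base stretches, 52.3% of those of Apol9b and 16.5% of those of Apol9a occur in the other copy. Apol8 was the lowest member, at 1.34 per kb in ATM KO and 0.892 in vector control cells.

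Most other genes near the cluster had differences close to 0. Within 1 Mb of the interval from Apol9a to Apol9b, 46 genes were listed, of which 5 were members and 34 others had a mean of at least 10. These 34 had a median log2 difference of 0.05 and a range from -0.37 to 1.17, with 20 above 0. Every ATM KO library was above every control in 2 of them (5.88%, near the 5.70% of all genes), Slc39a4 (0.15) and Cyhr1 (0.25). Every ATM KO library was below every control in 2, Cpsf1 (-0.24) and Rpl8 (-0.37), as in 5.48% of all genes. DESeq2 called 0 of the 34. The nearest other listed genes on either side of the measured members had differences near 0. Rbfox2, an RNA splicing factor gene 104 kb before the start of Apol9a, differed by 0.01 (SE 0.27), and Myh9, the non-muscle myosin heavy chain gene 431 kb after it, by 0.09 (SE 0.24). The highest of the 34 was Cyth4 with 1.17 (SE 0.58), at 38.5, 25.5 and 10.2 in ATM KO, against 11.7, 8.71 and 7.35 in vector control cells, which overlapped. Other listed genes with a mean under 10 ranged from -0.22 (Rac2) to 1.78 (Ncf4). Among these, Ncf4 and Csf2rb2 (1.24) were higher in ATM KO with no overlap, on very few reads. Ncf4 was at 4.28, 2.12 and 3.84 in ATM KO, against 0, 0.967 and 0 in vector control cells.

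**Figure D3:**
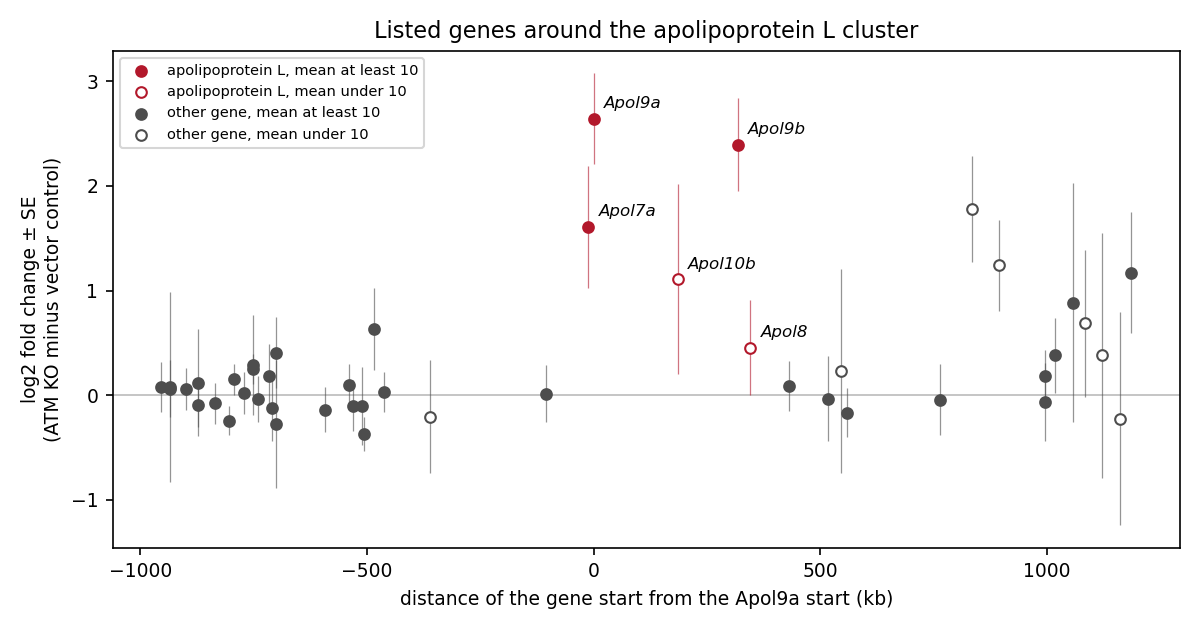
Log2 difference between ATM KO and vector control (vertical axis, with SE) of the listed genes around the chromosome 15 cluster, by distance of the gene start from the start of Apol9a in kb. Red points are apolipoprotein L genes and grey points other genes, with open points for means under 10; Apol9a and Apol9b stand at 2.64 and 2.40, and the 34 other filled points between -0.37 and 1.17.

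The Apol9 genes were set beside a list of 69 other type I interferon targets, of which 63 were in the tables and 60 had a mean of at least 10. This list, like the other gene lists below, was chosen with earlier results of these data known. Of these 60, 50 had a positive and 10 a negative difference, with a median of 0.48 on the log2 scale, against -0.01 over all tested genes. Every ATM KO library was above every control in 20 of them (33.3%, against 5.70% of all genes) and below in 0. Without vector control 1 the median fell to 0.14, while 23 (38.3%, against 19.6% of all genes) then had no overlap. DESeq2 called 4 of the 60 higher in ATM KO, against 0.561% of all genes with a DESeq2 adjusted p, and limma and edgeR called 0.

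Those 4 targets were Isg15, a ubiquitin-like modifier, Oasl2, an oligoadenylate synthetase-like protein, Ifih1, the double-stranded RNA sensor MDA5, and Slfn2, a Schlafen family protein. Isg15 was at 331, 347 and 145 in ATM KO cells, against 67.1, 68.7 and 87.2 in vector control cells (log2 difference 1.78, DESeq2 adjusted p = 0.00481). Oasl2 was at 260, 387 and 311 in ATM KO cells, against 13.6, 74.5 and 77.7 in vector control cells (2.84, DESeq2 adjusted p = 0.0137). Ifih1 was at 638, 676 and 532 in ATM KO cells, against 286, 362 and 367 in vector control cells (0.86, DESeq2 adjusted p = 0.0160). Slfn2, at 537, 328 and 193 in ATM KO cells, against 17.5, 90.0 and 89.3 in vector control cells (2.61), was just past the threshold, with a DESeq2 adjusted p of 0.0494. Of the 60 targets, 4 had a log2 difference at least as large as that of Apol9b: Oasl2 and Slfn2, and, named here after their values were seen, Zbp1 (2.61) and Gbp7 (2.47).

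The targets and the Apol9 genes were also set side by side in the controls, with no test between them. Controls 2 and 3 were on average above control 1 by 0.70 for Apol9a and 1.00 for Apol9b on the log2 scale. Over the 60 targets the median was 1.42, and 40 of them exceeded Apol9a and 20 did not. Over all 12149 tested genes the median was 0.02, and 2795 exceeded Apol9a. Gbp7, an interferon-induced GTPase gene with a gap of 3.55, had 89.0, 55.2 and 34.6 in ATM KO cells, against 0.973, 21.3 and 23.1 in vector control cells. Isg15 (0.20) and Ifih1 (0.35) had smaller gaps than the Apol9 genes. With control 1 left out, 0 of the 60 targets had a difference as large as the 2.06 of Apol9b, the nearest being Oasl2 with 2.04. Of all tested genes, 88 were at or above that size, the Apol9 genes included. Since Apol9a and Apol9b were chosen for a large difference, their place above the targets is a description only.

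**Figure D4:**
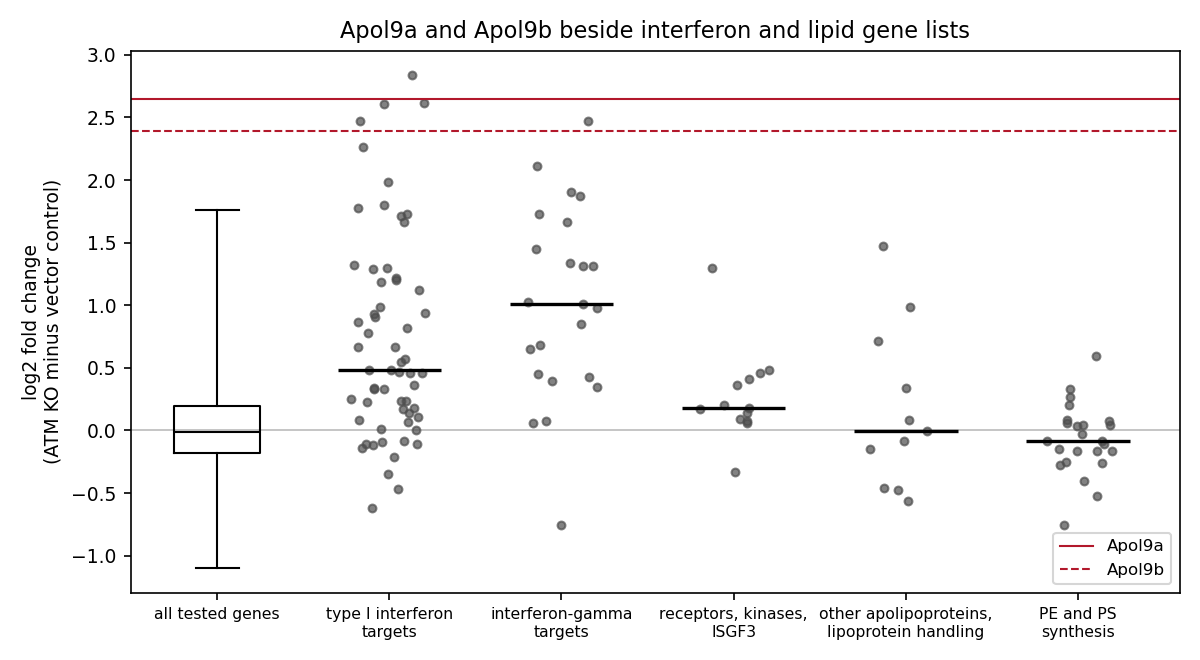
Log2 difference between ATM KO and vector control for all tested genes (box with quartiles and median, whiskers from the 1st to the 99th percentile) and for each member of 5 gene lists (points, with the median as a bar). PE and PS are phosphatidylethanolamine and phosphatidylserine, and red lines mark Apol9a at 2.64 and Apol9b at 2.40; both lie above the whisker of all genes, and 4 type I interferon targets lie at or above Apol9b.

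Interferon-gamma targets, some of which are also type I targets, had 22 positive and 1 negative difference among 23 tested, with a median of 1.01, and 0.50 without vector control 1. The groups did not overlap in 9 of them (39.1%, against 5.70% of all genes), all higher in ATM KO. DESeq2 called 1 of the 23 higher in ATM KO, against 0.561% of all genes with a DESeq2 adjusted p. It was Gbp9, a guanylate-binding protein gene, at 538, 255 and 596 in ATM KO cells, against 106, 154 and 155 in vector control cells (1.66, DESeq2 adjusted p = 0.00747). Gbp2, the member most like the Apol9 genes over the 6 libraries (r = 0.94), was at 316, 280 and 228 in ATM KO cells, against 25.3, 115 and 82.0 in vector control cells (2.11), and DESeq2 gave it an adjusted p of 0.0833.

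The genes that carry the interferon signal had smaller differences than their targets. Of 13 receptor, kinase and ISGF3 genes, 12 had a positive difference, with a median of 0.18, and -0.01 without vector control 1. No call was made among them by limma, edgeR or DESeq2. Stat2 differed by 0.18, with 829, 654 and 879 in ATM KO cells, against 357, 955 and 966 in vector control cells, and Irf9 by 0.36, both with overlap. Ifnar2, a subunit of the type I interferon receptor, was 1 of 13 (7.69%, against 5.70% of all genes) with no overlap, at 1004, 835 and 813 in ATM KO, against 657, 670 and 599 in vector control cells (0.46). It was also the gene of this list most like the Apol9 genes (r = 0.87), and Socs3, a feedback inhibitor, was the least alike (r = -0.11). With the mean of each group taken off, r was 0.02 for Ifnar2 and 0.52 for Socs3, so that the likeness of Ifnar2 lay in the group difference.

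Regulators that are themselves interferon targets split in the controls. Irf1 was at 2876, 1984 and 1918 in ATM KO cells, against 517, 1614 and 1710 in vector control cells, so that without control 1 its difference fell to 0.42, against 0.98 with it. Irf7 had a log2 difference of 0.98, and -0.04 without control 1. Usp18, the protease that removes Isg15 and dampens receptor signalling, was at 51.3, 34.0 and 51.2 in ATM KO cells, against 1.95, 38.7 and 53.6 in vector control cells, with differences of 1.30 and, without control 1, -0.03. The Apol9 differences without control 1, at 2.41 and 2.06, were larger than these values, and the difference between the genes was not tested. The Apol9 genes were chosen for their difference in this contrast, so nothing is read from this order.

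The ISRE core was also counted over all tested genes. Of 315 tested genes with a core in a promoter window, members not counted, 27 (8.57%) had no overlap and were higher in ATM KO and 23 (7.30%) lower, against 5.39% higher and 5.37% lower among 8366 without one. Their median differences were 0.04 with a core and -0.01 without. Within the type I targets, 8 of 23 with a core (34.8%) and 8 of 26 without one (30.8%) had no overlap and were higher in ATM KO. In the family the 3 members with a core had log2 differences of 2.64, 2.40 and 1.11, and Apol7a and Apol8, with no match in the window, had 1.61 and 0.45. The first 2 values are those of Apol9a and Apol9b, on which the family was chosen and whose promoters are copies, so nothing is read from this order. The third is Apol10b, whose groups overlapped. Without vector control 1 Apol10b had 0.47 and Apol7a, with no core, 1.16.

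Genes of the lipids that Apol9 proteins bind, and of other apolipoproteins, had medians near that of all tested genes. Of 24 genes of phosphatidylethanolamine and phosphatidylserine synthesis and transport, 10 had a positive and 14 a negative difference, with a median of -0.09. Every ATM KO library was above every control in 0 of them (5.70% of all genes) and below in 1 (5.48% of all genes). Without vector control 1, 2 of the 24 were higher with no overlap, against 19.6% of all genes. The gene below was Pcyt2, the rate-limiting enzyme of phosphatidylethanolamine synthesis from ethanolamine, at 1478, 1698 and 1540 in ATM KO cells, against 1752, 2253 and 2283 in vector control cells (-0.41). Of 11 tested apolipoprotein and lipoprotein-handling genes outside the family, 5 were positive and 6 negative, with a median of 0.00, and 1, the HDL receptor Scarb1 (-0.46), had every ATM KO library below every control. Without vector control 1, 3 of the 11 (27.3%, against 19.6% of all genes) were higher with no overlap. The lipid genes most like the Apol9 genes were Phospho1, a phosphatase of phosphoethanolamine, with r = 0.76 and a log2 difference of 0.59, and, among the apolipoproteins, clusterin (Clu), with r = 0.63 and 0.99. The least alike were Pemt, which converts phosphatidylethanolamine to phosphatidylcholine, with r = -0.67 and -0.76, and Scarb1, with r = -0.66. With the mean of each group taken off, r was 0.58 for Phospho1, 0.46 for Clu, -0.12 for Pemt and 0.20 for Scarb1. No gene of either list was called by limma, edgeR or DESeq2.

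Likeness to the Apol9 genes was measured as Pearson's r with their mean log2 profile over the 6 libraries, which share the depth and the outlying control of each library. That profile was chosen for its group difference, so r in part restates the difference between the groups. Apol9a and Apol9b had r = 0.92 with each other, Apol7a had 0.92 with their mean, Apol10b 0.63 and Apol8 0.47. Of 12145 tested genes outside the family 119 (0.980%) had r of at least 0.9, and so did 6 of the 60 type I targets. The 10 most alike were Usp9x, Map3k14, Ifih1, Nmi, Sept4, Ulbp1, Nt5e, Grap, Adam11 and Iba57, with r from 0.998 to 0.979. Usp9x, an X-linked deubiquitinase gene, had 12594, 13157 and 12159 in ATM KO, against 8581, 10000 and 9560 in vector control cells, a log2 difference of 0.43. Nmi, an interferon-induced gene, had 366, 375 and 325 in ATM KO, against 231, 273 and 258 in vector control cells, a difference of 0.48. Others of the 10 had larger differences, 1.72 for Sept4 and 2.19 for Grap, so that likeness of profile went with differences of varied size. The type I targets least like the Apol9 genes were Daxx, Epsti1 and Adar, with r of -0.46, -0.37 and -0.34. With the mean of each group taken off, their r was 0.36, 0.67 and -0.63.

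**Figure D5:**
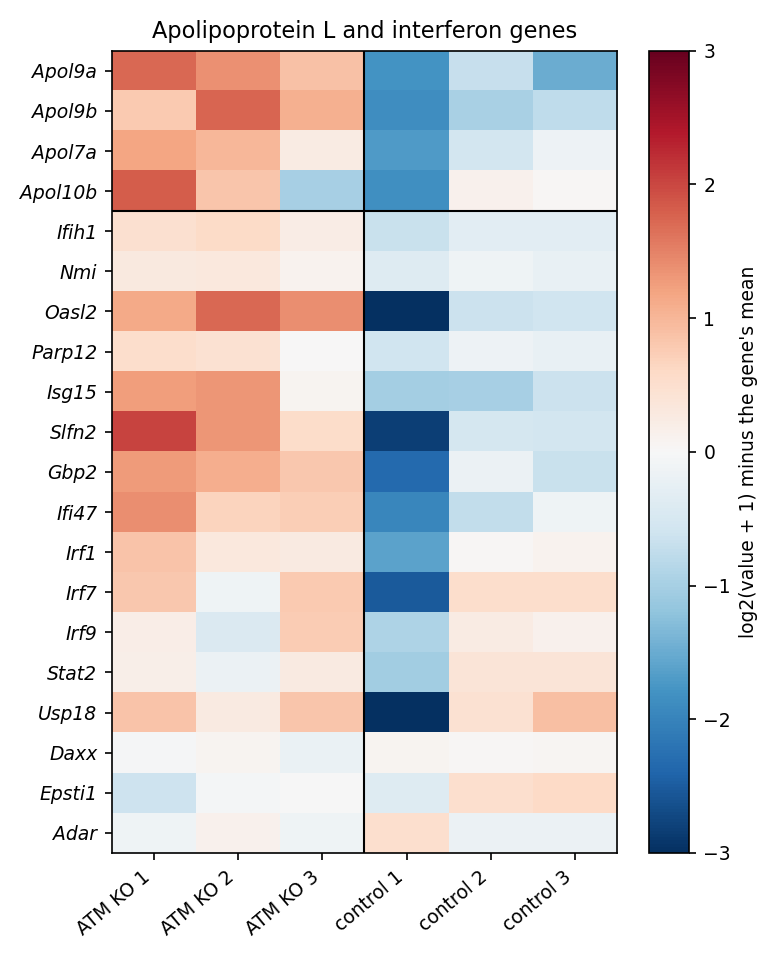
Log2(value + 1) minus the gene's mean over the 6 libraries (colour, from -3 in blue to 3 in red) for 4 apolipoprotein L genes, above the line, and 16 interferon-pathway genes, below it. Columns are libraries, ATM KO left of vector control; Apol9a and Apol9b are above their mean in all 3 ATM KO libraries and below it in all 3 controls, whereas Irf7 and Usp18 are far below in control 1 and above in controls 2 and 3.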

How the data were processed

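RNA-seq libraries of 3 ATM KO and 3 vector control 4T1 cell samples were analysed, grouped by title. Tools listed in the submitters' processing notes are STAR, HTSeq, SAMtools, Trim Galore, cutadapt and DESeq2, and builds are mm9 and GRCm38, with no roles or versions. The authors deposited a normalized signal for each gene, its reads over a scaling factor of the library. The values themselves show this, since 100% of them gave whole reads within 0.01. Strand use and read length are not given in the sources used here.

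Tests used limma 3.58.1 in R 4.3.3 on log2(value + 1), with a mean-variance trend, for the 12149 genes with a mean of at least 10, adjusted by Benjamini-Hochberg over all of them. The log2 scale with a pseudocount understates changes of low genes. Recovered reads were tested with edgeR 4.0.16 and DESeq2 1.42.0. The scripts were checked on simulated counts. Poisson and binomial intervals cover counting error only. Of 13405 listed IDs, 13249 were in GENCODE M21.

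The members and gene lists were chosen with earlier results of these data known. Named genes are all members, Atm, list members called by a test, in the interferon and lipid lists some of those most and least like the Apol9 profile (the rule allowed up to 6 and 3 a list), fixed interferon regulators (such as Stat2, Irf9, Irf1, Irf7 and Usp18; 1 is not reported here), the 10 most alike genes overall and genes within 1 Mb. Genes whose groups alone did not overlap, and Gbp7, Zbp1, Csf1r and Fn1, were named after their values were seen. Alternatives were pseudocounts, filters, scalings, count tests, a replicate block and leaving out each library.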

Additional observations from a re-analysis of the deposited data

How the results depend on the processing

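The count of genes called was 0 under each alternative tried except DESeq2 on recovered reads, which called 84. The log2 difference of Apol9a ranged from 2.39 to 2.68, of Apol9b from 2.21 to 2.43 and of their sum from 2.43 to 2.58 over the pseudocounts, filters, scalings, count tests and block. Leaving out 1 library gave 2.41 to 2.96 for Apol9a, 2.06 to 2.61 for Apol9b, 2.24 to 2.75 for the sum and -0.56 to -0.23 for the log2 ratio of Apol9a to Apol9b, with 0 genes called each time. The median of the type I interferon targets was 0.14 without vector control 1 and up to 0.67 without another library, against 0.47 to 0.52 under the other alternatives. The count of these targets without overlap went from 20 to 30 when a library was left out, and from 18 to 21 otherwise. With fewer libraries any gene parts the groups more easily. Without vector control 1 the targets had 23 (38.3%), against 19.6% of all tested genes, where all libraries gave 5.70%. The share of all genes was not computed for the other libraries left out, so nothing is read from the higher counts. A replicate block called 0 genes. The labels do not say if the numbers pair the libraries. Deviations of same-numbered libraries from their group means correlated at -0.02, -0.58 and 0.53, and no ATM KO library correlated best with the control of its own number. This cannot decide on pairing, because controls 2 and 3 are nearly alike. ATM KO 3 had 0.533 with control 2 and 0.528 with control 3. The count tests were not run for the ratio and the list values. Read numbers limit Apol8, Apol10b and Apol7a, with as few as 1 to 3 reads in a library.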
